A study of Mus musculus with 4 samples.

Results

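The replication licensing genes were taken by name as the MCM helicase subunits Mcm2, Mcm3, Mcm4, Mcm5, Mcm6 and Mcm7, the loading factors Orc1, Cdc6 and Cdt1, and the inhibitor geminin (Gmnn). All 10 were among the 41324 genes of the deposited table, and all 10 were among the 10837 genes that passed the abundance filter, a mean of at least 1 CPM (counts scaled to library size). They were followed in RAW264.7 cells, a mouse macrophage line, where actinomycin D, which intercalates into DNA and halts RNA synthesis, was present at 10 µg/ml. Cytoplasmic RNA, as the labels name it, was sequenced from untreated cells and from cells after 2, 4 and 6 h in the drug, with 1 library at each time, to measure mRNA half-lives. Every library came from the same line in the same serum-containing medium, was depleted of ribosomal RNA and was made with a directional kit. Separate cultures for the 4 times are not stated. No time point was repeated, and in bulk RNA fewer cells of a cycle phase cannot be told apart from less mRNA per cell.

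Origin licensing is the loading of the MCM helicase onto DNA before S phase. The origin recognition complex, of which Orc1 is the largest subunit, binds an origin and recruits the ATPase Cdc6 and the loader Cdt1, which together place a double ring of Mcm2 to Mcm7 around the DNA. Geminin binds Cdt1 and blocks reloading once S phase has begun. In growing cells the Cdt1, Cdc6, Orc1 and geminin proteins are destroyed at set points of the cycle, whereas the MCM proteins are long-lived, and transcription of most licensing genes is driven by E2F factors as cells enter S phase.

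Total counts were 35669434 in the untreated library, 38260540 at 2 h, 70289647 at 4 h and 12762100 at 6 h, so the 6 h library carried the widest counting error. Levels below are counts scaled with TMM factors, which set the typical gene close to no change, so that a level of 100% of untreated means a loss like that of the typical gene and not an absence of loss. Across all genes tested the median level was 101% of untreated at 2, 4 and 6 h alike. Intervals are exact 95% intervals on counts, unless stated otherwise, and cover counting error only. Summed macrophage markers lay between 3382 and 5034 CPM in the 4 libraries, with all 8 above a mean of 1 CPM. T cell, fibroblast and epithelial markers reached at most 0.27 CPM in sum, all 4 epithelial markers were at 0 in every library, and B cell markers reached at most 2.12 CPM, most of it Cd79b.

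Since licensing genes are known as E2F targets, their promoters were searched for the E2F letters TTTCCCGC, TTTGGCGC, TTTCGCGC and TTTGCCGC on both strands. RefSeq promoters of the GRCm38 build, from 250 bases before to 50 bases after the start of the gene, were matched for 8 of the 10 genes. Gmnn and Mcm4 were not analysed here. At least 1 match was found in 7 of these 8 genes (Mcm3, Mcm5, Mcm6, Mcm7, Cdt1, Cdc6 and Orc1, all but Mcm2), against 5.13% of the 7798 tested genes with a promoter entry. Counted by promoter, 7 of the 9 entries of these genes had a match, Mcm7 having 2 entries, against 2.27% of all 32851 promoters. Matches of different letter sets overlapped in Mcm5 and Mcm6. The stretches below show the match in capitals, each on the strand of its gene; they are a shared feature of the DNA and were not tested for binding.

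Cdt1, chr8:122568038-122568063, plus strand: aactaccttTTTGGCGCcatggcgca
Cdc6, chr11:98908004-98908029, plus strand: cggtggagaGCGGGAAAtcgcctggg
Orc1, chr4:108579418-108579443, plus strand: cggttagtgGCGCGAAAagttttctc
Mcm5, chr8:75109347-75109372, plus strand: gccaagaacTTTCGCGCcaaaacgtc
Mcm6, chr1:128359736-128359761, minus strand: ttggacgggTTTGGCGCgaagtagct
Mcm7, chr5:138171851-138171876, minus strand: gtgacgacgTTTCGCGCcaatttcgg

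In untreated cells the licensing mRNAs took 0.215% of all counts, and Mcm2 to Mcm7 took 87% of the licensing counts. Per kilobase of transcript, Mcm3 and Mcm5 stood highest, at 152 TMM-scaled CPM per kb (counting interval 149 to 154) and 144 (141 to 146), followed by Mcm2 at 115 (113 to 117). Mcm7 at 83.5, Cdt1 at 82.2 and Mcm6 at 80 CPM per kb followed, and neighbours among these 3 had overlapping intervals, with Mcm4 below them at 73.6. Gmnn at 52.2, Cdc6 at 14.6 and Orc1 at 7.61 CPM per kb stood lowest, each apart from the next beyond counting error. The places of Mcm3 and Mcm5 at the top and of Gmnn, Cdc6 and Orc1 at the bottom were also found when levels were divided by the merged length of all annotated exons, whereas Mcm2, Mcm4, Mcm6 and Mcm7 changed places between them.

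After the block the set separated. Cdt1, Cdc6 and Orc1 fell, none of the MCM mRNAs passed the slope test, and geminin had a steeper downward slope than any MCM mRNA but missed the threshold. At 4 h Mcm4, Mcm6 and Mcm7 stood at 123%, 116% and 115% of untreated, above the median gene at 101%. By edgeR's quasi-likelihood test of a straight line over the 4 times, 3 of the 10 genes fell and 0 rose at an adjusted p under 0.05, against 17.2% of all tested genes that fell (1859 of 10837) and 8.65% that rose. At an unadjusted p under 0.05, 4 licensing genes fell, geminin being the fourth, and 0 rose, where 5127 of the 10837 tested genes passed in either direction. The median slope was −0.014 log2 per h over the 10 genes and 0.0014 over all genes tested.

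**Figure D1:**
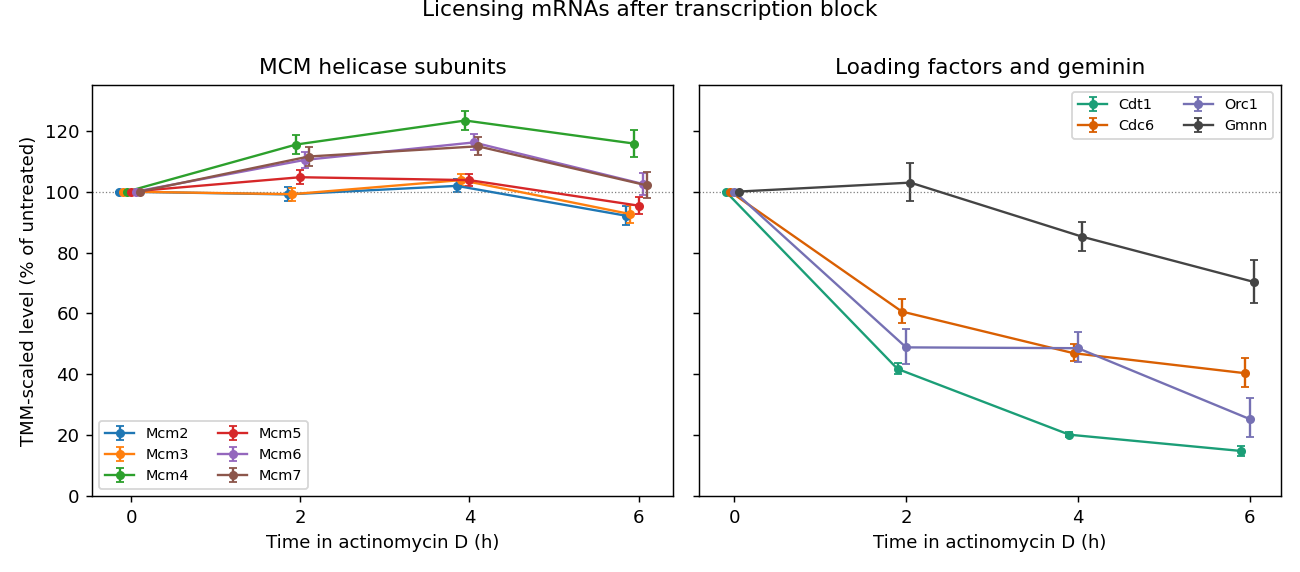
TMM-scaled level of each licensing mRNA, as percent of the untreated library, against hours in actinomycin D, with 1 library per time and bars giving the exact 95% counting interval. The 6 MCM subunits stayed between 92.1% and 123%, while Cdt1 ended at 14.9%, Orc1 at 25.3%, Cdc6 at 40.4% and Gmnn at 70.3%.

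Cdt1, which brings the MCM ring to the origin, lost most. In mm10 its gene spans chr8:122568015-122573554, plus strand. It had 5480 counts untreated, then 3257, 2761 and 327 at 2, 4 and 6 h, or 180, 75.2, 36.4 and 26.7 TMM-scaled CPM. Every treated library lay below the one before it. The level was 41.8% of untreated at 2 h (counting interval 40 to 43.7%), 20.2% at 4 h (19.3 to 21.1%) and 14.9% at 6 h (13.2 to 16.6%). The fitted line fell by 0.46 ± 0.045 log2 per h (SE; adjusted p = 0.0153 in edgeR). Cdt1 passed the test without any 1 of the 4 libraries and under each scaling tried.

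Orc1, an ATP-binding subunit of the origin recognition complex, was the least abundant of the set. Its gene spans chr4:108579423-108614833, plus strand. Its counts were 698 untreated and 485, 846 and 71 at 2, 4 and 6 h, or 22.9, 11.2, 11.1 and 5.8 TMM-scaled CPM. The 2 and 4 h libraries were alike, at 48.9% (43.4 to 54.9%) and 48.6% (43.9 to 53.8%) of untreated, and the 6 h library was lower, at 25.3% (19.5 to 32.4%). The fitted line fell by 0.30 ± 0.053 log2 per h (adjusted p = 0.0303 in edgeR). The call was lost without the 4 h library (−0.32, edgeR adjusted p = 0.0563) or the 6 h library (−0.26, 0.0655). Over all genes, falls numbered 352 without the 4 h library and 2234 without the 6 h library, against 1859 with every library. Exons of the model gene Gm12743 on the opposite strand share 376 bases with Orc1, and no source used here gives the strand setting of the counting.

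Cdc6, the ATPase that joins the origin recognition complex, is encoded at chr11:98907801-98923940, plus strand. It had 2047 counts untreated and 1765, 2397 and 332 at 2, 4 and 6 h, or 67.2, 40.8, 31.6 and 27.1 TMM-scaled CPM. Most of the drop came by 2 h, with levels of 60.6% (56.9 to 64.6%), 46.9% (44.2 to 49.8%) and 40.4% of untreated (35.8 to 45.4%). The fitted line fell by 0.22 ± 0.03 log2 per h (adjusted p = 0.0218 in edgeR), a call lost without the 4 h library (−0.21, edgeR adjusted p = 0.0583). The slope hardly moved, and falls over all genes numbered 352 without that library, against 1859 with every library.

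Geminin, the Cdt1 inhibitor, is encoded at chr13:24751845-24761923, minus strand. It had 1791 counts untreated and 2622, 3805 and 506 at 2, 4 and 6 h, or 58.8, 60.6, 50.1 and 41.4 TMM-scaled CPM. The 2 h library did not differ from the untreated one beyond counting error (103%, interval 96.9 to 109%), and the later libraries were lower, at 85.2% (80.5 to 90.1%) and 70.3% (63.6 to 77.7%). Its line, with −0.09 ± 0.024 log2 per h, missed the threshold (adjusted p = 0.0542 in edgeR). It passed without the untreated library (−0.14, edgeR adjusted p = 5.67e-05), a fit on fewer libraries whose smaller p is not stronger evidence of a fall. It did not pass without the 2, 4 or 6 h library (−0.08, −0.09 and −0.06, edgeR adjusted p = 0.0769, 0.148 and 0.211). By edgeR it passed with DESeq2 size factors (adjusted p = 0.0493), MCM counts (0.0473), ribosomal protein counts (0.0197) and the deposited divisors (0.0122) as library sizes, and not with total counts (0.585). It passed in DESeq2's Wald test (adjusted p = 0.0172).

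The 6 subunits of the MCM helicase, which unwinds DNA at the fork, moved close together. Mcm2 to Mcm7 lay between 99.1% and 115% of untreated at 2 h, between 102% and 123% at 4 h and between 92.1% and 116% at 6 h. None passed the slope test in either direction (edgeR adjusted p between 0.203 and 0.815). Mcm2, Mcm3 and Mcm5 formed the lower group, at 92.1% (88.9 to 95.3%), 92.6% (89.7 to 95.6%) and 95.4% (92.5 to 98.4%) of untreated at 6 h, and all 3 intervals lay below 100%. Mcm6 and Mcm7 were at 103% (98.9 to 106%) and 102% (97.8 to 106%). As percent of untreated, Mcm4 stood highest of the 6 at each treated time. Mcm4 had 8047 counts untreated and 13211, 24752 and 3742 afterwards, or 264, 305, 326 and 306 TMM-scaled CPM. Its line had 0.037 ± 0.02 log2 per h (adjusted p = 0.203 in edgeR), and passed as a rise without the 6 h library (0.076, edgeR adjusted p = 0.0445). Mcm2, Mcm3, Mcm4, Mcm5 and Mcm6 share no exon bases with another annotated gene. Mcm7 shares 321 exon bases with Ap4m1 and 64 with Cops6 on the opposite strand, which had 206 and 1024 counts at 6 h beside 3086 for Mcm7, and it carries the miRNA genes Mir25, Mir93 and Mir106b in its locus, which were listed at 0 in all 4 libraries.

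The direction of the MCM mRNAs depended on how the libraries were scaled. Relative to TMM, the divisors behind the deposited normalized values moved the median gene by −0.52 log2 over 6 h, ribosomal protein counts by −0.35 and total counts by 0.13. Under the deposited divisors all 10 licensing genes fell, with MCM slopes between −0.10 (Mcm2) and −0.05 log2 per h (Mcm4), and under ribosomal protein counts 8 fell, all but Mcm4 and Mcm6. Of all 10837 genes tested, 5038 fell under the deposited divisors and 2590 under ribosomal protein counts, against 1859 with TMM. In those deposited values the MCM subunits stood at 64.3% to 80.8% of untreated at 6 h, against 10.4% for Cdt1. The untreated total includes 23.2% from the clone-named gene RP23-81C12.1, which took 0.386% or less of each treated library. Cdt1, Cdc6 and Orc1 fell under all 6 scalings.

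**Figure D2:**
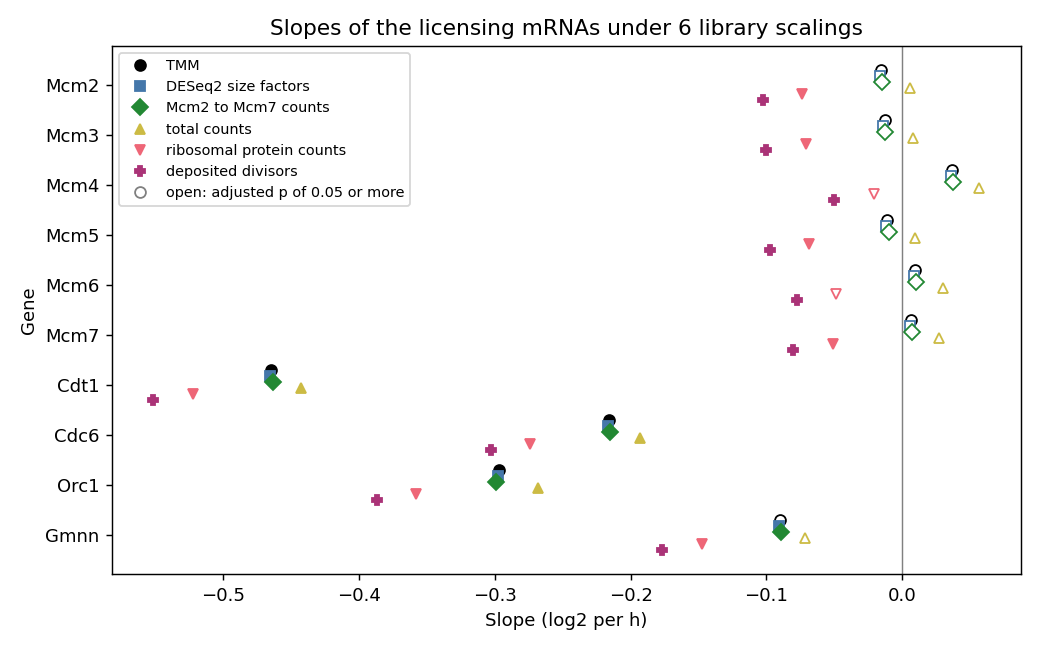
Slope over the 4 times in log2 per h for each licensing mRNA under 6 ways of scaling the libraries, with filled symbols where the edgeR adjusted p was under 0.05. Cdt1, Orc1 and Cdc6 lie left of 0 and filled under all 6, whereas the MCM subunits lie around 0 with TMM and at −0.10 to −0.05 with the deposited divisors.

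Ratios within a library need no scaling, so each remaining gene was counted per 1000 counts of Mcm2 to Mcm7. Cdt1 had 82.1 counts per 1000 MCM counts untreated (79.8 to 84.4), and 32.5, 15.2 and 12.4 (11.1 to 13.8) at 2, 4 and 6 h. Cdc6 had 30.7 untreated and 17.6, 13.2 and 12.6 at the later times, so that Cdt1 and Cdc6, far apart at the start, had overlapping intervals at 6 h. Geminin had 26.8, 26.2, 21 and 19.1, and Orc1 10.5, 4.84, 4.66 and 2.69. Cdt1 counts outnumbered geminin counts 3.06 to 1 in the untreated library (2.9 to 3.23), and stood at 1.24, 0.726 and 0.646 to 1 at 2, 4 and 6 h (0.561 to 0.744 at 6 h). These are ratios of counts and not of molecules, since the transcripts differ in length.

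**Figure D3:**
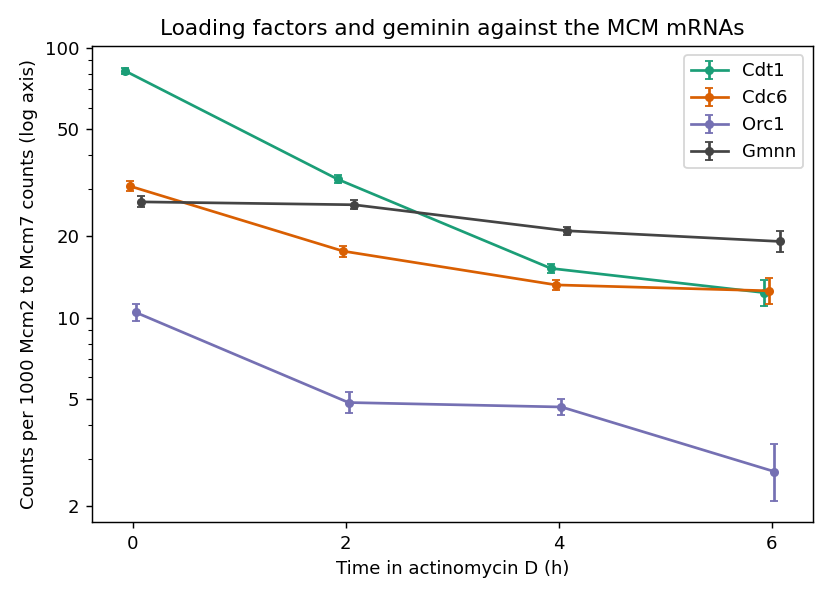
Counts of Cdt1, Cdc6, Orc1 and Gmnn per 1000 counts of Mcm2 to Mcm7 in the same library, on a log axis, against hours in actinomycin D, with exact 95% counting intervals. Cdt1 begins at 82.1, above Gmnn at 26.8, and ends at 12.4, below Gmnn at 19.1.

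The losses against the MCM mRNAs were uneven in time. Cdt1 kept 39.6% of its ratio over the 2 h to the first treated library (counting interval 37.9 to 41.4%), 46.8% from 2 to 4 h (44.4 to 49.2%) and 81.3% from 4 to 6 h (72.5 to 91.3%). Cdc6 kept 57.5%, 75% and 95.1% over the same steps, the last not apart from 100% beyond counting error (84.7 to 107%). Orc1 kept 46.3%, 96.3% and 57.6%, its middle step being within counting error of no change (86.1 to 108%). Geminin kept 97.6%, 80.1% and 91.3%, and only its middle interval (76.2 to 84.2%) excluded 100%. The intervals of these steps are normal approximations on the log scale and not exact ones. With 1 library per time these steps carry no test.

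When the slope was fitted with Mcm2 to Mcm7 counts as library sizes, 4 of the 10 licensing genes fell and 0 rose, against 9.78% of all genes that fell and 9.97% that rose. The MCM genes set these library sizes, so their joint slope was held near 0 in advance. Each MCM gene could move only against the sum of its own set, so the count out of 10 is not like the share of all genes. At an unadjusted p under 0.05, 4 fell and 1 rose, the rise being Mcm4, where 4752 of all 10837 genes tested passed in either direction. The 4 were Cdt1 (−0.46 ± 0.057 log2 per h, edgeR adjusted p = 0.0341), Orc1 (−0.30 ± 0.054, 0.0397), Cdc6 (−0.21 ± 0.041, 0.0412) and Gmnn (−0.09 ± 0.019, 0.0473). Without the 2 h or the 4 h library 0 of the 4 passed by edgeR (adjusted p between 0.103 and 0.137), while the slopes were −0.47 and −0.44 for Cdt1, −0.23 and −0.20 for Cdc6, −0.08 and −0.09 for Gmnn and −0.32 and −0.31 for Orc1. Without the untreated library Cdt1 (−0.36) and Gmnn (−0.11) passed, and the slopes of Cdc6 (−0.13, edgeR adjusted p = 0.0601) and Orc1 (−0.18, 0.172) were smaller and did not. Without the 6 h library Cdt1 (−0.61) and Cdc6 (−0.30) passed, and Gmnn (−0.09, edgeR adjusted p = 0.0861) and Orc1 (−0.29, 0.0578) did not. How many of all genes passed these fits with 1 library left out was not counted, so the lost calls cannot be read as particular to these genes. Within the MCM set, Mcm4 made up 12.1% of MCM counts untreated (11.8 to 12.3%) and 13.2%, 13.6% and 14.2% later (13.7 to 14.6% at 6 h), each above the untreated interval. Against the set its line had 0.037 ± 0.01 log2 per h (adjusted p = 0.0659 in edgeR). The shares of the other 5 subunits varied by 1.05 to 1.07 times between their lowest and highest library.

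Courses that were not straight were tested by a quadratic time term with TMM scaling. Of the 10 genes, 2 bent upward, Cdt1 (0.051 ± 0.0063 log2 per h squared, edgeR adjusted p = 0.00086) and Cdc6 (0.032 ± 0.0066, adjusted p = 0.0089), against 18.9% of all genes tested. An upward bend here is a loss that slowed. Downward bends were found for 5, Mcm4, Mcm5, Mcm6, Mcm7 and Gmnn (edgeR adjusted p between 0.0063 and 0.0484), against 12% of all genes. All 5 downward bends were lost with the deposited divisors, with ribosomal protein counts and with MCM counts as library sizes, that of Mcm5 was also lost with DESeq2 size factors (edgeR adjusted p = 0.0771), and both upward bends were lost with total counts. A change of library sizes shifted the bends of the 10 genes by nearly the same amount, and the share of all genes that bent was counted with TMM only. The lost bends are therefore not a result about these genes alone. With MCM counts the joint course of the MCM genes was held level in advance. Orc1, whose course had a level middle, did not pass (edgeR adjusted p = 0.843).

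The authors' deposited table gives a half-life for each gene. For all 14957 genes with one, the value was recomputed to within a relative 1e-06 by a log-linear fit through the untreated value using the normalized values at 0, 2 and 4 h, so the 6 h library did not enter it. The authors' deposited table lists half-lives of 1.41 h for Cdt1, 2.31 h for Orc1, 2.43 h for Cdc6 and 6.12 h for Gmnn. For the helicase the authors' deposited table lists 8.52 h (Mcm2), 8.93 h (Mcm3), 9.61 h (Mcm5), 15.2 h (Mcm7), 15.6 h (Mcm6) and 24.9 h (Mcm4). The median was 7.43 h over the 9848 tested genes with a half-life above 0 in the authors' deposited table. Of these, 3.41% had a shorter one than Cdt1, 13.7% than Orc1, 15.1% than Cdc6, 43.5% than Gmnn and 85.3% than Mcm4. A further 988 tested genes had a half-life below 0, which stands for a fitted rise. They are left out, so the median is shorter and the shares larger than with them.

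Because the 6 h library was not used for these half-lives, it offers a separate reading of them. Cdt1 stood at 10.4% of untreated at 6 h in the deposited normalized values (9.25 to 11.6%), against 5.25% computed from the half-life in the authors' deposited table. Cdc6 stood at 28.2% (25 to 31.7%), against 18%. For these 2 genes the observed level was 1.98 and 1.56 times the computed one. Orc1 at 17.7% against 16.5%, and Gmnn at 49.1% against 50.7%, did not differ beyond counting error. Among the MCM subunits, Mcm2 was above its computed level beyond counting error (64.3% against 61.4%), Mcm4, Mcm6 and Mcm7 were below theirs (80.8% against 84.6%, 71.6% against 76.6% and 71.2% against 76.1%), and Mcm3 and Mcm5 were within error. Over 10835 tested genes the median of this ratio was 1.15, with a middle range from 1.01 to 1.45, and 78% of genes were above 1. With the 6 h library included in the same fit, the half-life would be 1.66 h for Cdt1, 2.92 h for Cdc6 and 21.2 h for Mcm4.

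**Figure D4:**
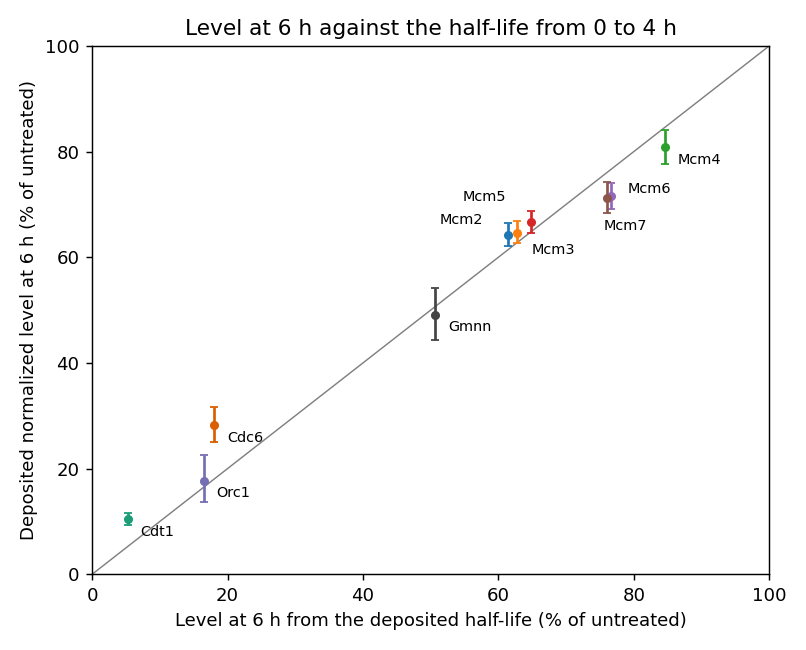
Deposited normalized level at 6 h against the level at 6 h computed from the half-life in the authors' deposited table, both as percent of untreated, with exact 95% counting intervals and a line of equality. Cdt1 (10.4% against 5.25%) and Cdc6 (28.2% against 18%) lie above the line, and Orc1 and Gmnn lie on it within their intervals.

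The 3' untranslated regions were read from GENCODE transcripts of the mm10 build, since they often carry the sites that set mRNA lifetime. They ranged from 136 bases in Mcm7 to 2731 in Cdc6, with 474 in Cdt1, 358 in Orc1 and 224 in Gmnn, against a median of 1098 over 9537 tested genes. The pentamer ATTTA, the core of AU-rich elements, was present in 7 of the 10 (all but Mcm4, Mcm7 and Gmnn), against 69.3% of tested genes. The longer TATTTAT was present in 4 (Mcm2, Mcm5, Cdc6 and Orc1), against 29.8%. The Pumilio-type letters TGTANATA were present in 4 (Mcm4, Cdt1, Gmnn and Orc1), against 26.1%. All were searched on the transcript strand, and each TATTTAT holds an ATTTA. Each of the 3 was present in genes that fell and in genes that did not. ATTTA was in Cdt1, Cdc6 and Orc1, and also in Mcm2, Mcm3, Mcm5 and Mcm6. The share with ATTTA was near the background, and a link between these motifs and loss was not tested. Sites of the 3 genes that fell are shown with the motif in capitals, all on the plus strand, the first for TGTANATA and the others for TATTTAT.

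Cdt1, chr8:122573007-122573032: tgggccttcTGTAAATAtgtgaagtg
Orc1, chr4:108614581-108614605: attttccatTATTTATtttgctttt
Cdc6, chr11:98921867-98921891: ttgtgaataTATTTATtttcaagtt

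Genes of the neighbouring steps of replication were taken from 5 lists of 60 genes in all, each of which was tested. Of these, 14 fell and 0 rose (23.3% fell, against 17.2% of all genes), with a median slope of −0.023 log2 per h. The 10 genes of licensing factor turnover gave 6 falls, the 28 fork genes 5, the 12 origin firing genes 2, the 4 MCM relatives 1 and the 6 other origin recognition genes 0. The lists were chosen with earlier results of these data known, so these counts only describe the lists. At an unadjusted p under 0.05, 21 fell and 5 rose, where 5127 of all 10837 genes tested passed in either direction. By DESeq2's Wald test 5 of the 60 rose, where 1529 rose over all genes. By edgeR without the 6 h library 6 rose, where 1123 rose over all genes. Without the 4 h library 9 of the 60 fell, where 352 fell over all genes, against 1859 with every library. Calls lost without the 4 h library below thus go with a loss of calls over the whole table.

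The genes of licensing factor turnover encode parts of ubiquitin ligases that act on Cdt1, Cdc6 and other cell-cycle proteins, and a deubiquitinase, which removes ubiquitin. Ccnf, cyclin F, which directs Cdc6 to the proteasome, fell to 16.4% of untreated at 6 h (14.1 to 19%, slope −0.44 ± 0.058, edgeR adjusted p = 0.0206). Fbxo31, an F-box protein that targets Cdt1, fell to 20.5% (adjusted p = 0.0161), and Dtl, the receptor of the ligase that destroys Cdt1 in S phase, fell to 31.6% (slope −0.29 ± 0.025, adjusted p = 0.0145). Fzr1, an activator of the anaphase-promoting complex, fell to 40.2%, the other activator, Cdc20, to 74.6% and the deubiquitinase Usp37 to 73.5% (edgeR adjusted p = 0.0145, 0.0364 and 0.0461). Ddb1, the adaptor through which Dtl works and the most abundant gene of the list, stood at 128% (edgeR adjusted p = 0.0734). The Cdc20 call was lost when the 2, 4 or 6 h library was left out (edgeR adjusted p = 0.0742, 0.116 and 0.0893), and that of Usp37 when the untreated, 2 or 4 h library was (0.156, 0.0706 and 0.148). Usp37 also did not pass with MCM counts as library sizes (edgeR adjusted p = 0.119), and neither Usp37 nor Cdc20 passed without the abundance filter (0.0631 and 0.0504).

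Among partners of the helicase, Mcm10, which helps to start the assembled helicase, fell to 42.2% of untreated (38.3 to 46.5%, edgeR adjusted p = 0.0145), while Mcmbp, which binds MCM subunits, stood at 90.7% (adjusted p = 0.241). Cdc45 and Gins3, subunits of the active helicase, fell to 66.8% and 25.7% (edgeR adjusted p = 0.0352 and 0.034). The Cdc45 call was lost when the 2, 4 or 6 h library was left out (edgeR adjusted p = 0.0621, 0.102 and 0.0846), and that of Gins3 without the 4 h library (0.0729) or with MCM counts as library sizes (0.0525). Topbp1, which helps to load Cdc45, stood at 87.4% (edgeR adjusted p = 0.161), and Orc2, the most abundant of the other origin recognition subunits, at 92.1% (adjusted p = 0.255).

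At the fork, Chaf1a, the large subunit of the histone chaperone CAF-1, fell to 28.5% of untreated, and Wdhd1, which couples helicase and polymerase, to 30.6% (edgeR adjusted p = 0.0145 each). The clamp loader subunit Rfc3 fell to 37.6% (adjusted p = 0.0236), the checkpoint mediator Clspn to 49.3% (0.0153) and the fork protection gene Timeless to 62.1% (edgeR adjusted p = 0.019). Pcna, the sliding clamp and the most abundant of the list, stood at 112% (edgeR adjusted p = 0.254). The Timeless call was lost without the 4 h library (edgeR adjusted p = 0.0721). With total counts as library sizes Timeless, Clspn, Cdc45, Cdc20 and Usp37 did not pass (edgeR adjusted p = 0.477, 0.145, 0.573, 0.72 and 0.661).

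**Figure D5:**
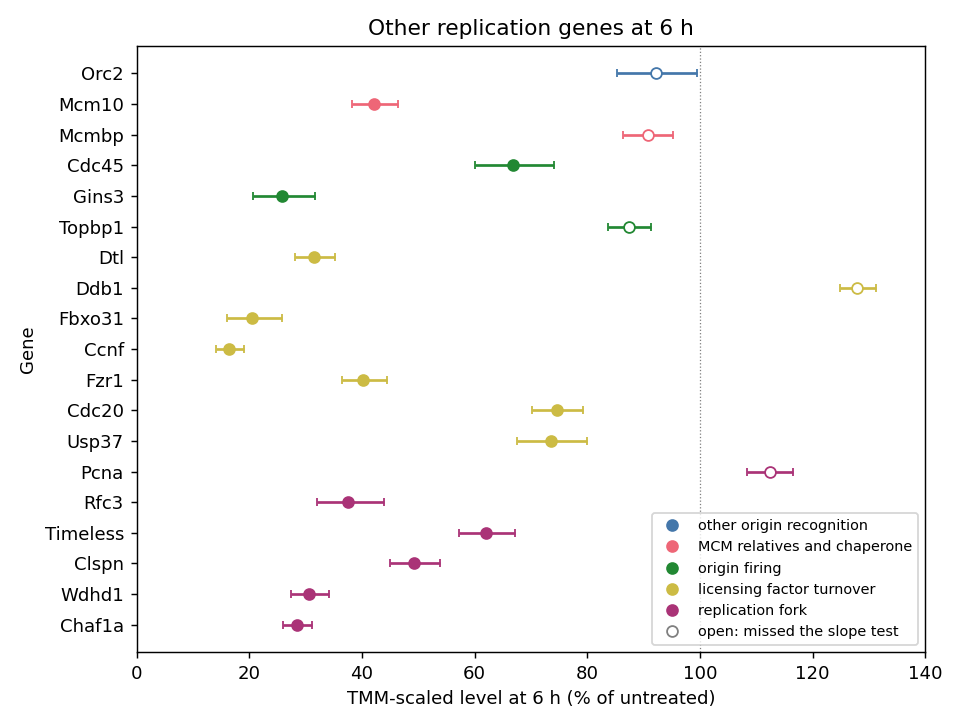
TMM-scaled level at 6 h as percent of untreated for the genes of 5 replication lists that passed the slope test (filled) and for the most abundant member of each list where it did not pass (open), with exact 95% counting intervals. The filled genes run from 16.4% (Ccnf) to 74.6% (Cdc20), and the open ones from 87.4% (Topbp1) to 128% (Ddb1).

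Courses were also compared across 7710 other genes with a mean of at least 10 CPM, by the root mean square difference of log2 changes at 2, 4 and 6 h. Nearest to Cdt1 were Ubtd1 (0.088 log2), Ccnf (0.10), Zfp143 (0.14), Rhof (0.17) and Taf5l (0.17). Ubtd1 stood at 43.5%, 21.7% and 15.8% of untreated at the 3 times. Nearest to the mean of Mcm2 to Mcm7, which stood at 107%, 110% and 99.7%, were Slc2a6 (0.0088 log2), Trappc3 (0.015), Ints11 (0.016), Hps3 (0.016) and Trp53 (0.016). Likeness here is a description of 4 libraries.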

How the data were processed

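Alignment used STAR 2.5.3a and read assignment featureCounts with Subread 1.6.3, against mm10, per the submitters' processing notes. No source used here gives the annotation release, the strand setting of the counting or the handling of multi-mapping reads. The deposited table holds raw counts per gene, whole numbers used as deposited, and a normalized signal that the authors made by dividing each library's counts by 1300, 2250, 4476 and 748. The half-life column, a score in h, and the R2 column, a fraction, are in the authors' deposited table. Columns not matched to a sample numbered 0.

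Slopes were tested with edgeR 4.0.16 in R 4.3.3 (TMM factors, mean CPM of at least 1, quasi-likelihood test with the dispersion set inside the quasi-likelihood fit). The fits had 2 residual degrees of freedom, and 1 for bends and for slopes with 1 library left out. DESeq2 1.42.0 served as an alternative. Benjamini-Hochberg adjustment ran over all genes tested, and the threshold was 0.05. Transcripts were those with the longest 3' untranslated region among basic CCDS models of GENCODE M21; promoters came from RefSeq (GRCm38). In simulated counts for the slope test (10837 genes, 50 changed at each slope), 50, 46, 47 and 50 genes were recovered at -0.5, -0.25, 0.25 and 0.5 log2 per h, with 1 unchanged gene called. The simulated courses were straight, few genes changed and all genes shared the same dispersion, unlike the data. The simulation therefore gives no error rate for these data and does not cover bent courses or smaller slopes. Alternatives were other scalings and filters, DESeq2, leaving out each library and, added after seeing the data, estimated dispersions and leave-outs of the fits against the MCM mRNAs. The members and lists were chosen with earlier results of these data known. Named were all 10 members, every other replication gene past the slope test and otherwise the most abundant of each list, and the 5 nearest courses.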

Additional observations from a re-analysis of the deposited data

How the results depend on the processing

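No paired analysis was possible because each time has 1 library. Of 52 alternative slopes of Cdt1, Cdc6, Gmnn and Orc1, 43 kept their side of the threshold, 3 lost it, 6 gained it and 0 changed sign; of 78 for Mcm2 to Mcm7, 15 changed sign. The cause was not tested. Over all genes, falls numbered 5038 with the deposited divisors, 2590 with ribosomal protein counts, 1060 with MCM counts and 352 (without 4 h) to 2234 (without 6 h) with 1 library left out. Rises numbered 208 with total counts, 79 with the divisors, 134 with ribosomal protein counts, 1529 with DESeq2's Wald test and 25 (without 4 h) to 1123 (without 6 h) with 1 library left out. Licensing falls numbered 10 with the divisors, 8 with ribosomal protein counts and 1 (without 4 h) to 4 (without the untreated library) with 1 left out, and rises 0 to 1. Against the MCM mRNAs, falls numbered 0 to 2 with 1 left out, where the share of all genes was not counted. Falls of other replication genes numbered 50 with the divisors, 29 with ribosomal protein counts and 9 to 18 with 1 left out, and rises 1 with DESeq2 size factors, 4 with MCM counts, 5 with the Wald test and 0 to 6 with 1 left out. Licensing bends numbered 0 upward with total counts and 0 downward with the divisors, ribosomal protein counts or MCM counts, where the share of all genes was not counted. With total counts the slopes turned to 0.005425 (Mcm2), 0.008215 (Mcm3) and 0.009374 (Mcm5), and the bends to -0.004819 (Cdc6) and -0.02886 (Orc1). With the divisors and ribosomal protein counts slopes turned to -0.05039 and -0.02114 (Mcm4), -0.07771 and -0.04844 (Mcm6), and -0.08031 and -0.05104 (Mcm7). With the divisors, ribosomal protein counts and MCM counts bends turned to 0.006094, 0.005686 and 0.005649 (Mcm2), 0.004868, 0.004448 and 0.00444 (Mcm3), and 0.002659, 0.002288 and 0.002166 (Mcm5). With 1 library left out slopes ran from -0.02621 to 0.006694 (Mcm2), -0.02437 to 0.01332 (Mcm3), -0.03358 to 0.01329 (Mcm5), -0.02649 to 0.05395 (Mcm6) and -0.03184 to 0.04995 (Mcm7), and against the MCM mRNAs from -0.01777 to 8.088e-05 (Mcm3), -0.002062 to 0.02286 (Mcm6) and -0.007485 to 0.01887 (Mcm7). The 6 h library, with 12762100 counts, sets the precision of the last levels, widest for Orc1 at 71 counts.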
